A study of Mus musculus with 12 samples.

Results

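Adult neurogenesis genes were followed in RNA from the mouse hippocampus, as 10 genes chosen by name: Sox2, Mki67, Top2a, Eomes, Neurod1, Neurod2, Sox4, Sox11, Dcx and Igfbpl1. All 10 were found among the 78298 genes of the deposited table, and all 10 were among the 18600 genes that passed a filter on low counts. The study measured poly(A) RNA in 12 libraries of male C57BL/6 mice, 4 libraries in each of 3 groups, to ask how stress changes the hippocampus and what poricoic acid A, a triterpenoid that Poria cocos fungus makes, does in stressed mice. Treatment mice went through chronic unpredictable mild stress for 28 days, a daily change of mild stressors used as a model of depression, and from day 15 received poricoic acid A by gavage at 20 mg/kg once a day for 14 days. Model mice went through the same stress and received saline. Control mice received saline and no stress. All were 6 to 8 weeks old when purchased. The labels state 4 per group but not whether each library comes from its own animal. The p-values below therefore measure the spread between these libraries, which may be technical.

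In the dentate gyrus of the adult hippocampus, radial glia-like stem cells give rise to dividing intermediate progenitors, which become neuroblasts and then granule neurons. Each stage has its own regulators. Sox2 keeps stem cells undifferentiated, Mki67 and Top2a are made in dividing cells, Eomes marks intermediate progenitors, and Neurod1, Sox4 and Sox11 drive progenitors toward neurons. Dcx binds microtubules in migrating neuroblasts, and Igfbpl1 is a secreted protein of newborn neurons. Few cells of the tissue belong to these stages. Several of the genes are also active in other cells, for example Sox2 in astrocytes and Neurod2 in mature excitatory neurons. In bulk RNA of this kind, fewer cells of a type and less RNA per cell cannot be told apart.

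Neurod1, Neurod2 and Sox11 were the genes whose Treatment libraries all lay below all Model libraries (values below), so their promoters are shown, as RefSeq gives them for the mouse build GRCm38.p6, 250 bases before to 50 after the start of the gene. All 3 lie on the minus strand. Capitals mark CATATG, the E-box letters CANNTG with TA in the middle, which read the same on both strands. Neurod1 lies at chr2:79456587-79456886, Neurod2 at chr11:98329596-98329895 and Sox11 at chr12:27342669-27342968.
Neurod1: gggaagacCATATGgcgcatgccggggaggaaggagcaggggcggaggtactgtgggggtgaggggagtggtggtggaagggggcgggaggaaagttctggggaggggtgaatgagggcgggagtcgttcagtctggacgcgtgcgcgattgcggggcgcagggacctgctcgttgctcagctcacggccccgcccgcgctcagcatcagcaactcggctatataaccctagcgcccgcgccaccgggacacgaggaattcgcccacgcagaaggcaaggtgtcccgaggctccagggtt
Neurod2: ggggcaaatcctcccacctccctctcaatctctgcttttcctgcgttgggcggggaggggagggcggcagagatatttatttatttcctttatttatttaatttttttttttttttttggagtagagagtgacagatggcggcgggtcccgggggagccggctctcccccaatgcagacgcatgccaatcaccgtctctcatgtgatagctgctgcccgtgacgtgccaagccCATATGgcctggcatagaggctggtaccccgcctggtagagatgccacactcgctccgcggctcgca
Sox11: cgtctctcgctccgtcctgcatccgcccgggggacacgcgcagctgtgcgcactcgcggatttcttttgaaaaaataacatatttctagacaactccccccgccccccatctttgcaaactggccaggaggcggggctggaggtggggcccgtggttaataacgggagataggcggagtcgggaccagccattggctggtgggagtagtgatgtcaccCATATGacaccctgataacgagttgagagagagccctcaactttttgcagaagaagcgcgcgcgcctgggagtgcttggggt
The first base of CATATG was at position -242 in Neurod1, -17 in Neurod2 and -32 in Sox11, counted from the start of the gene. A promoter was listed for 9 of the 10 genes (with 2 starts for Dcx), and CATATG stood in these 3 of them and in 3.91% of 32851 promoter windows of the same length. The letters were chosen after the sequences were seen. The wider pattern CANNTG was found in 7 of the 9 genes and in 72.3% of all windows. A match is a description of the letters only. Igfbpl1 is named only.

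Top2a, which encodes the topoisomerase that untangles copied chromosomes, is shown for comparison as a gene of dividing cells, from its minus-strand promoter at chr11:99024140-99024439, with CCAAT on either strand in capitals.
Top2a: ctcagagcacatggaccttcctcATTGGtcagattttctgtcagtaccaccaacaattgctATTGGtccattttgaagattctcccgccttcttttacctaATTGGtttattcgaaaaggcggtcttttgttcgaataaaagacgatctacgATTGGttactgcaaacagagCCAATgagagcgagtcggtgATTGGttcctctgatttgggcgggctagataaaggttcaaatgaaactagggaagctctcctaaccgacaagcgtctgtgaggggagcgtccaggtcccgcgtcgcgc
It held 6 matches, whereas Sox4 held 4 and Mki67 3. In all, 8 of the 9 genes and 37.4% of all windows held at least 1.

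Per length of transcript, the 10 genes covered a wide range of levels. The deposited FPKM, fragments scaled by transcript length and by library total, averaged 54.2 ± 6.67 for Neurod2 (SD, n = 12 libraries), which was above 91.5% of the genes tested, and 0.423 ± 0.0875 for Mki67, above 7.08% of them. In FPKM the order was Neurod2 (42.9 to 64.2), Sox2 (15.2 to 22.1), Neurod1 (8.38 to 13.1), Sox4 (5.36 to 6.79), Dcx (3.50 to 5.81) and Sox11 (2.65 to 3.80), then Igfbpl1 (1.52 to 4.04), Eomes (0.319 to 1.89), Top2a (0.436 to 1.55) and Mki67 (0.258 to 0.554). Neurod2, Sox2, Neurod1 and Sox4 did not overlap with each other in any pair of libraries, whereas from Sox4 downward each gene overlapped with the next in its range over the 12 libraries. The genes of rare cells were thus measured on few reads: Eomes had 20 to 120 estimated counts per library, Top2a 40 to 83 and Mki67 60 to 141, against 2475 to 4257 for Neurod2. For Top2a the FPKM also carries a change of length between libraries, since the transcript length implied by count and FPKM went between 2157 bases in Model replicate 4 and 4869 bases in Control replicate 1, a 2.26-fold range. For the 6 genes Sox2, Mki67, Neurod1, Neurod2, Sox4 and Sox11 that range was at most 1.03-fold.

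**Figure D1:**
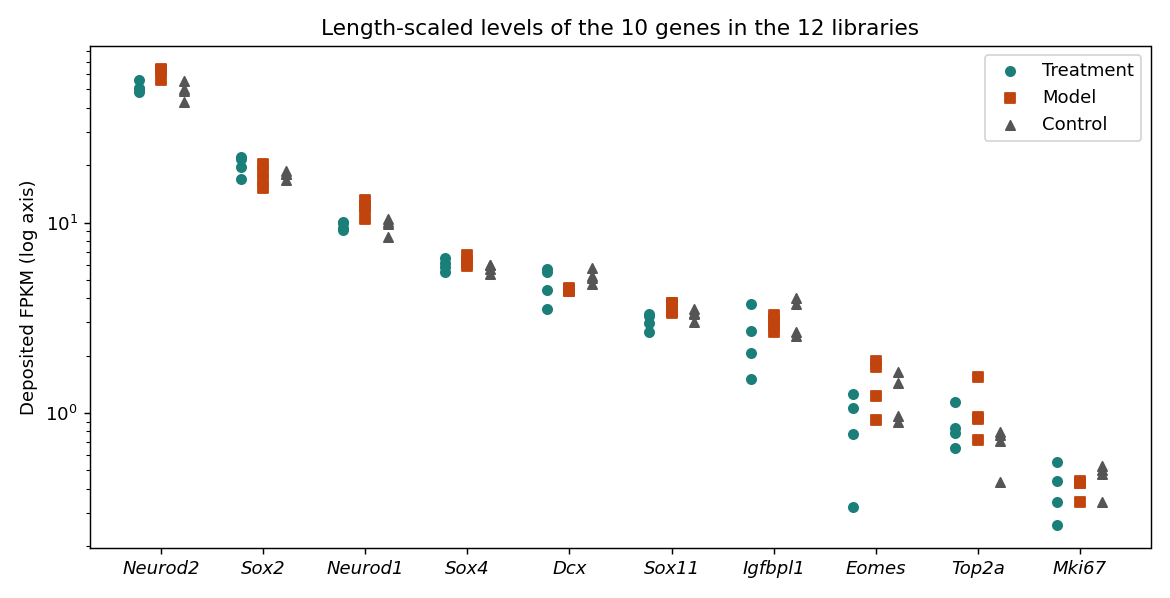
Deposited FPKM (log axis) of the 10 genes in order of their mean level, with 4 points for each of Treatment, Model and Control. Neurod2 lies between 42.9 and 64.2 and Mki67 between 0.258 and 0.554, and from Sox4 downward neighbouring genes overlap.

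Levels below are CPM, counts scaled to the TMM-adjusted size of each library, which compare 1 gene between libraries and not 2 genes with each other. Fold changes are log2 ± SE from edgeR's quasi-likelihood test with n = 4 libraries per group, and a gene passed where its p, adjusted by Benjamini-Hochberg over all 18600 genes, was under 0.05. Library totals were 17083260 to 27479083 estimated counts, and the biological coefficient of variation was 10.7%. All libraries carry the same batch label, and the library names of Treatment replicates 2 and 3 (1631 and 1636) stand apart from the others. Granule cell markers were present: all 20 of a fixed list passed the count filter, as did all 20 pyramidal cell markers. All 15 choroid plexus markers and all 13 thalamus and habenula markers passed it too, so the filter does not single out the labelled tissue. RNA of adjoining tissue varied, with 15 choroid plexus markers summing to 963 to 2530 CPM in Treatment, 1155 to 1616 CPM in Model and 1385 to 4118 CPM in Control. In Model against Control all 15 had negative fold changes and 2, Abca4 and Sostdc1, fell, with a median of -1.25. The 13 thalamus and habenula markers summed to 216 to 313 CPM in Treatment, 218 to 336 CPM in Model and 218 to 529 CPM in Control. Their highest libraries were Control replicate 1 (529 CPM), Model replicate 2 (336 CPM) and Treatment replicate 2 (313 CPM). The part of this tissue in the values below was not tested.

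After stress, Neurod2 was the only gene of the 10 that passed in Model against Control, where it rose 1.26-fold. Over all genes 0.79% passed, and 0.339% passed as higher. Of the 10 fold changes 7 were positive and 3 negative, and their median was 0.14, beside -0.01 over all genes tested. At an unadjusted p under 0.05 there were 3 of the 10 (Neurod1, Neurod2 and Sox4), beside 15.6% of all genes. The Model libraries did not overlap with the Control libraries for 3 genes, Neurod1 and Neurod2 on the higher side and Dcx on the lower. Such separation was seen for 11.4% of all genes, 5.95% upward and 5.46% downward.

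In stressed mice given poricoic acid A, edgeR called 0 of the 10 genes in Treatment against Model, where 1.88% of all genes passed. At an unadjusted p under 0.05 there were 4 of the 10 (Eomes, Neurod1, Neurod2 and Sox11, all with negative fold changes), beside 18.5% of all genes. DESeq2, which called more genes than edgeR over the whole table (counts in the last section), called Neurod1 and Neurod2. In limma-voom, which called fewer, 0 of the 10 passed. The median of the 10 was -0.15, beside 0.00 over all genes, with 3 positive and 7 negative. For Neurod1, Neurod2 and Sox11 the 4 Treatment libraries all lay below the 4 Model libraries, as was so for 4.36% of all genes.

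Between Treatment and Control 0 of the 10 genes passed in edgeR, in DESeq2 or in limma-voom, and 0 had an unadjusted p under 0.05 (adjusted p = 0.466 to 0.998 in edgeR), beside 13.9% of all genes. The share of all genes that passed was 0.102%. The median was -0.05 with 5 positive and 5 negative fold changes, and the libraries of the groups overlapped for all 10, whereas they did not for 7.24% of all genes. Any 2 of these comparisons share a group, so their values are given side by side only.

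**Figure D2:**
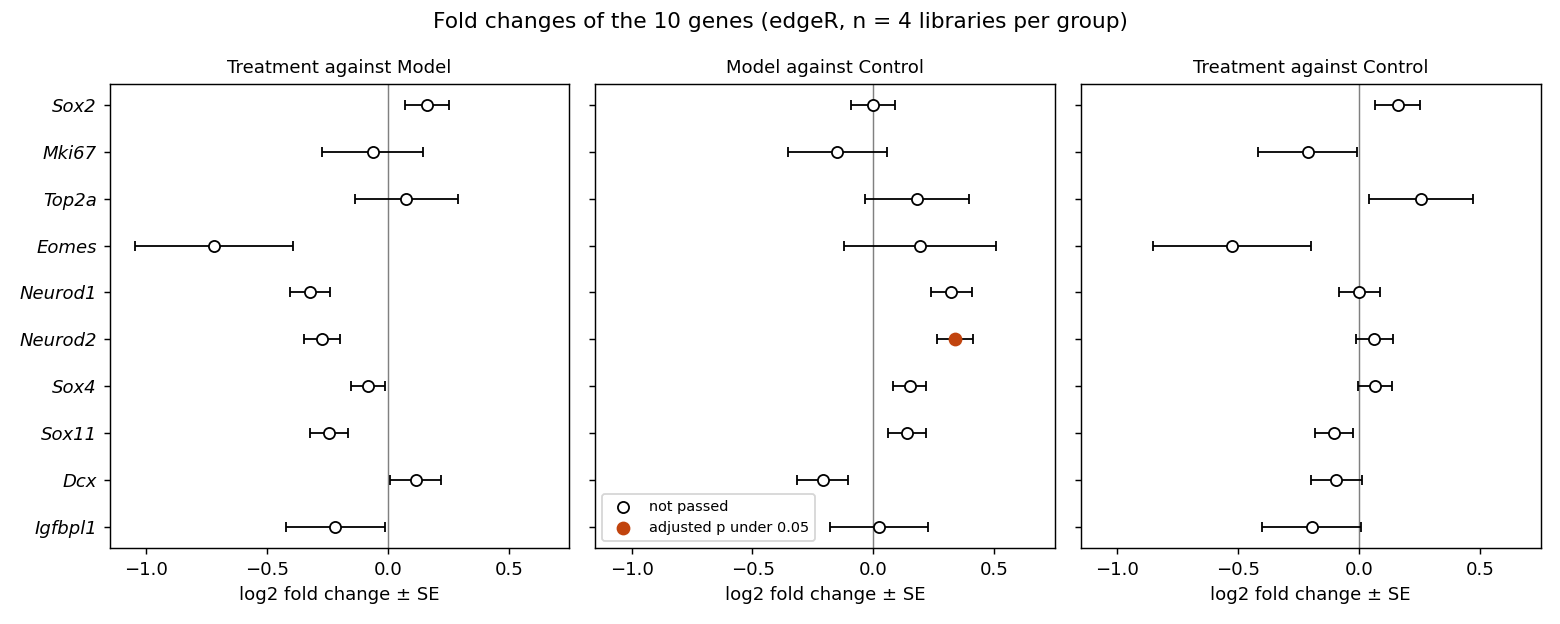
Log2 fold change ± SE of each of the 10 genes in edgeR for Treatment against Model, Model against Control and Treatment against Control, from top to bottom in order of stage. The filled point is Neurod2 in Model against Control, which passed at 0.34, and open points did not pass.

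Of the stem cell factor Sox2, which lies at chromosome 3, 34704554 to 34706610 in GRCm39, the level was 30.3, 37.7, 38.9 and 36.1 CPM in Treatment, 33.9, 30.0, 27.5 and 36.2 CPM in Model, and 29.7, 33.5, 32.3 and 32.5 CPM in Control. Treatment replicates 2 and 3 were the highest of the 12, and the groups overlapped. It averaged 35.7 ± 3.82 CPM in Treatment, 31.9 ± 3.89 CPM in Model and 32.0 ± 1.60 CPM in Control (SD, n = 4 each), which gave 0.16 ± 0.09 in Treatment against Model (adjusted p = 0.368, edgeR) and -0.00 ± 0.09 in Model against Control (adjusted p = 0.994). Of its own family, 6 SoxB1 and SoxC factors were tested, of which 0 passed in any comparison (2, 2 and 0 at an unadjusted p under 0.05 in Treatment against Model, Model against Control and Treatment against Control). Sox2, Sox4 and Sox11 are themselves among the 6, and these counts include Sox11 in Treatment against Model and Sox4 in Model against Control.

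Ki-67, the protein that coats chromosomes of dividing cells, comes from Mki67 (chromosome 7, 135291513 to 135318090). The gene had 5.44, 4.26, 3.33 and 2.59 CPM in Treatment, 4.31, 3.36, 4.29 and 4.25 CPM in Model, and 3.30, 5.10, 4.89 and 4.70 CPM in Control. Treatment libraries thus held both the highest and the lowest value of all. Its fold change was -0.06 ± 0.21 in Treatment against Model (adjusted p = 0.915) and -0.15 ± 0.21 in Model against Control (adjusted p = 0.787), both from edgeR.

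Top2a (chromosome 11, 98883769 to 98915015) likewise had 3.59, 2.84, 2.37 and 2.71 CPM in Treatment, 2.36, 2.20, 2.94 and 3.39 CPM in Model, and 2.09, 3.0, 2.79 and 1.76 CPM in Control. The groups overlapped, although Control replicates 1 and 4 (2.09 and 1.76 CPM) lay below all Model and Treatment libraries. Its differences were 0.08 ± 0.21 (adjusted p = 0.899) for Treatment against Model and 0.18 ± 0.21 (adjusted p = 0.749) for Model against Control in edgeR. On the FPKM scale with a pseudocount of 0.1 the first of these was -0.23. Within groups Mki67 varied more than 80.0% of the 500 genes nearest to it in level, and Top2a more than 50.4%.

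Eomes, also known as Tbr2, is the T-box factor of intermediate progenitors (chromosome 9, 118307280 to 118314434). It had 1.03, 3.85, 3.33 and 2.28 CPM in Treatment, 5.34, 5.51, 3.87 and 2.62 CPM in Model, and 4.27, 3.15, 5.01 and 2.82 CPM in Control. Treatment replicate 1 was the lowest of the 12, with 20 counts, and Model replicates 1 and 2 were the highest. The Treatment mean of 2.62 ± 1.25 CPM, against 4.33 ± 1.36 CPM in Model (SD, n = 4 each), gave the largest fold change of the 10 genes in this comparison, -0.72 ± 0.32, which did not pass in edgeR (adjusted p = 0.249). Without Treatment replicate 1 it was -0.46 (adjusted p = 0.379), and without Treatment replicates 2 and 3 together it was -1.36 (adjusted p = 0.106). On the FPKM scale with a pseudocount of 1 it was -0.41 (adjusted p = 0.306), and without a filter on low counts it passed (adjusted p = 0.0235). Treatment replicate 1 was also the lowest of the 12 in the mean score of 7 Cajal-Retzius cell markers (-0.69, log2 relative to the 12-library mean) and of 11 ependymal markers (-1.02). The same library was lowest too for radial glia-like stem cells (-0.15), SoxB1 and SoxC factors (-0.19) and pyramidal cells (-0.14). It was also lowest for subventricular and olfactory neuroblast genes (-0.24), but highest for the doublecortin family (0.11), which includes Dcx itself. Model replicates 1, 2 and 3 had the highest Cajal-Retzius scores, 0.31, 0.30 and 0.30, although Eomes in Model replicate 3 was at 3.87 CPM, within the range of Control. The Cajal-Retzius list, of early-born neurons that line the dentate gyrus, had a median of -0.29 in Treatment against Model and 1 gene that fell, Lhx1 (-2.02 ± 0.49, adjusted p = 0.0476). That call rests on few reads: Lhx1 had 3, 8, 7 and 2 counts in Treatment, 35, 15, 22 and 15 in Model and 25, 24, 15 and 8 in Control. The part of Cajal-Retzius and ependymal cells in the values of Eomes was not tested. Between Model and Control it was 0.19 ± 0.32 (adjusted p = 0.828). Among the 500 genes nearest to Eomes in level, 95.6% varied less within groups. Tbr1, the other T-box brain factor tested, went the other way with 0.44 ± 0.12 in Treatment against Model (adjusted p = 0.0693). Tbr1, a gene of deep neocortical layers and other glutamatergic neurons, stood at 91.3, 66.5, 63.5 and 87.6 CPM in Treatment against 58.8, 54.8, 47.5 and 67.2 CPM in Model.

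Both NeuroD factors stood highest in Model. Neurod2, a basic helix-loop-helix activator of differentiating and mature excitatory neurons (chromosome 11, 98216241 to 98220474), had 139.9, 144, 159 and 149 CPM in Treatment, 162, 183, 187 and 183 CPM in Model, and 140.1, 123, 144 and 159 CPM in Control. Every Model library lay above every Treatment and every Control library, with Model replicate 1 closest to them. Its mean was 148 ± 8.27 CPM in Treatment, 179 ± 11.6 CPM in Model and 142 ± 14.9 CPM in Control (SD, n = 4 each). It rose by 0.34 ± 0.07 in Model against Control, with adjusted p = 0.0499 in edgeR, and in Treatment against Model the difference of -0.27 ± 0.07 did not pass (adjusted p = 0.0703). Between Treatment and Control it was 0.06 ± 0.07 (adjusted p = 0.769). The call in Model against Control ended without Control replicate 1, 2 or 3 (adjusted p = 0.127, 0.159 and 0.0776), without Model replicate 2, 3 or 4 (0.130, 0.130 and 0.134), without Treatment replicate 2 or 4 (0.0501 and 0.0581) in limma-voom (0.0530) and with FPKM values (0.131 and 0.132), while its fold change was positive in every setting, from 0.28 to 0.40. Without Treatment replicate 3 the gene passed in Treatment against Model (adjusted p = 0.0485). Choroid plexus markers differed in the same comparison in which Neurod2 was called, with negative fold changes for 15 of 15 in Model against Control (median -1.25, 2 fell), and their part in the result was not tested.

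Neurod1, the related factor that newborn granule neurons need to mature and survive (chromosome 2, 79282865 to 79287095), had 22.6, 24.3, 22.8 and 25.2 CPM in Treatment, 32.5, 25.9, 30.6 and 29.5 CPM in Model, and 24.5, 20.6, 25.7 and 24.3 CPM in Control. Model again lay above both other groups without overlap, by little in the case of Model replicate 2. The means of 23.7 ± 1.26 CPM in Treatment, 29.6 ± 2.78 CPM in Model and 23.8 ± 2.20 CPM in Control (SD, n = 4 each) gave -0.32 ± 0.08 for Treatment against Model (adjusted p = 0.0592, edgeR) and 0.32 ± 0.08 for Model against Control (adjusted p = 0.0799), neither of which passed, and 0.00 ± 0.08 for Treatment against Control (adjusted p = 0.998). DESeq2 put the first at adjusted p = 0.0139 and the second at adjusted p = 0.0163, and without Control replicate 2 the first passed in edgeR too (0.0499). Across the 12 libraries Neurod1 and Neurod2 had Pearson's r = 0.73 (permutation p = 0.00664, adjusted p = 0.283 over 45 pairs of the 10 genes) and Spearman's rho = 0.75 (permutation p = 0.00702, adjusted p = 0.150). Without the 2 libraries farthest from the median r was 0.76, and within groups it was 0.20. Of 7 NeuroD and related factors listed 5 were tested, these 2 included. All 5 had positive fold changes in Model against Control, and Neurod2 alone passed. The median of 0.34 is the value of Neurod2 itself. Neurod4 and Neurog2, also among the 5, were near the floor with means of 0.541 and 1.44 CPM. Neurod6, a factor of pyramidal neurons that was picked after its values were seen, was at 0.14 ± 0.09 (adjusted p = 0.517) there and -0.22 ± 0.09 (adjusted p = 0.214) in Treatment against Model.

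**Figure D3:**
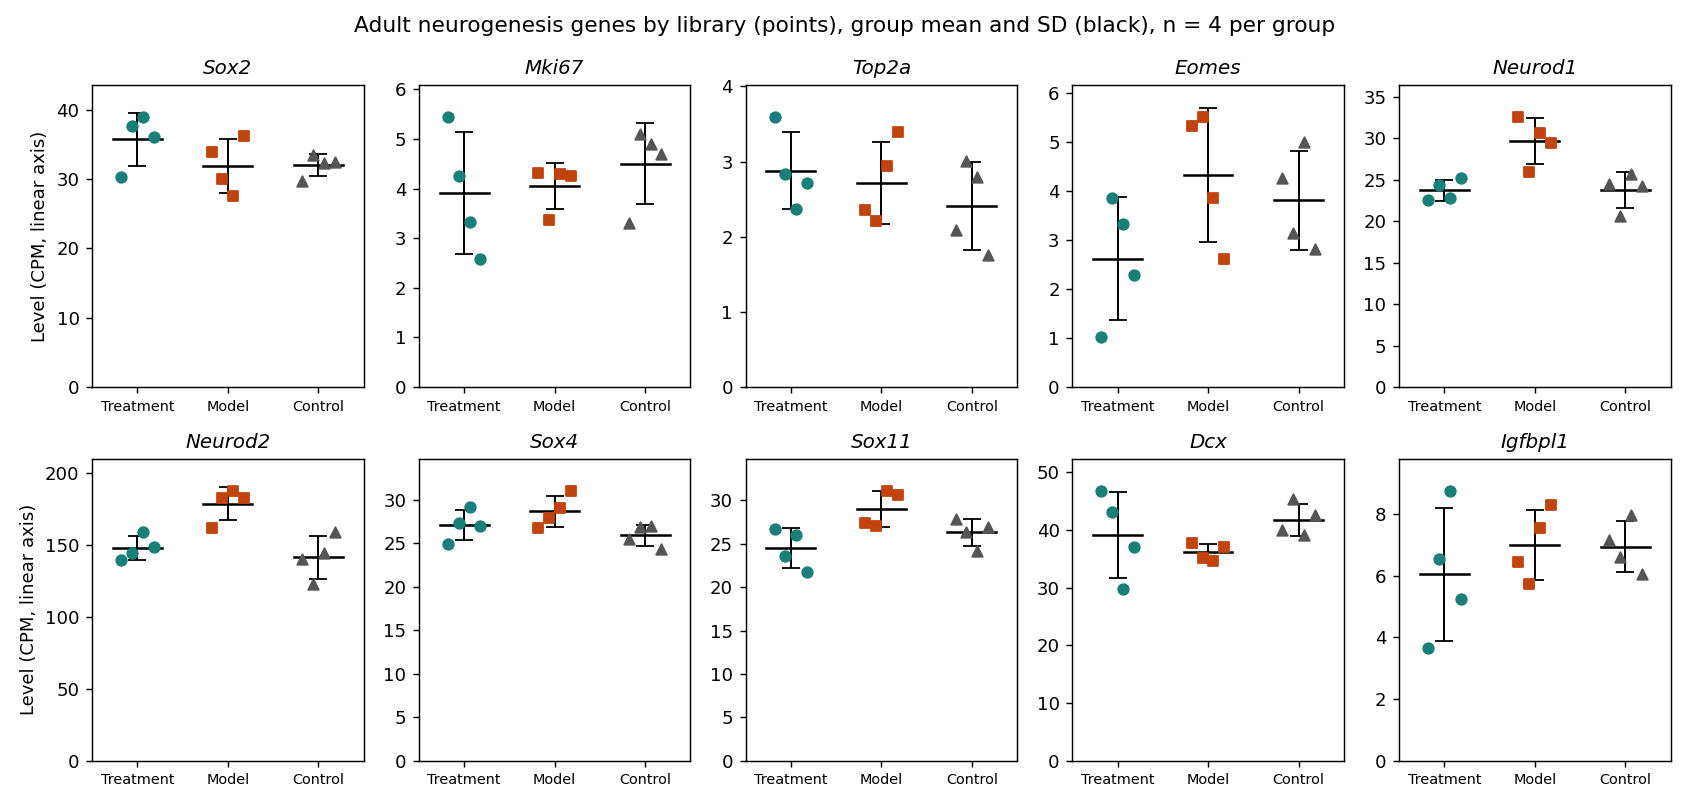
CPM (linear axes from 0) of the 10 genes in each library, with the mean and SD of each group of 4 in black. The Model libraries of Neurod2 (162 to 187 CPM) and Neurod1 (25.9 to 32.5 CPM) lie above those of Treatment and Control, and the Model libraries of Dcx (34.6 to 37.7 CPM) below those of Control.

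The SoxC factors Sox4 and Sox11 open neuronal genes in cells leaving the progenitor state. Sox11 (chromosome 12, 27384263 to 27392573) had 26.8, 23.6, 26.1 and 21.8 CPM in Treatment, 27.4, 27.1, 31.1 and 30.6 CPM in Model, and 27.9, 26.3, 24.2 and 26.9 CPM in Control. All Treatment libraries were below all Model libraries, the closest pair being 26.8 and 27.1 CPM. The difference was -0.24 ± 0.08, adjusted p = 0.113 in edgeR, and that of Model against Control 0.14 ± 0.08, adjusted p = 0.418.

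Sox4 (chromosome 13, 29132902 to 29137696) varied least of the 10, by 1.28-fold between the highest and the lowest library. It had 25.0, 27.4, 29.2 and 27 CPM in Treatment, 26.8, 27.9, 29.1 and 31.0 CPM in Model, and 25.5, 26.9, 27 and 24.3 CPM in Control. Model and Control overlapped only in Model replicate 1. The difference was 0.15 ± 0.07 in Model against Control (adjusted p = 0.313, edgeR) and -0.08 ± 0.07 in Treatment against Model (adjusted p = 0.581).

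Doublecortin, the product of Dcx on chromosome X (142638838 to 142716307), is the usual marker of hippocampal neuroblasts. Its gene had 46.8, 43.2, 29.8 and 37.0 CPM in Treatment, 37.7, 35.1, 34.6 and 37.1 CPM in Model, and 40.0, 45.3, 39.1 and 42.6 CPM in Control. The Model libraries were close together and all below the Control libraries, while Treatment held both the highest and the lowest value of the 12. The means were 39.2 ± 7.44 CPM in Treatment, 36.2 ± 1.5 CPM in Model and 41.8 ± 2.79 CPM in Control (SD, n = 4 each). The fold change of -0.21 ± 0.11 in Model against Control did not pass in edgeR (adjusted p = 0.355), and neither did that of 0.12 ± 0.11 in Treatment against Model (adjusted p = 0.621). Of the doublecortin family 5 of 6 genes were tested, and 0 passed in Treatment against Model or in Model against Control (1 and 2 at an unadjusted p under 0.05). Dclk3, a related kinase and the gene of smallest p in the family, was at 0.30 ± 0.09 in Model against Control (adjusted p = 0.133), opposite in sign to Dcx.

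The level of Dcx in the Treatment libraries went together with a property of these libraries. Dcx has a long transcript of 9074 bases (longer than 96.6% of the genes tested) that is poor in G and C, at 40.6% (8.7% of genes were lower). The difference between the longest and the shortest transcripts (deciles of length) was 0.25, 0.18, -0.28 and -0.15 (log2, relative to the mean of the libraries) in Treatment replicates 1 to 4, between 0.01 and 0.11 in Model and between -0.12 and -0.02 in Control. The 4 Treatment libraries had the same order in Dcx as in this difference. Over the 12 libraries Pearson's r was 0.56 (permutation p = 0.0537, adjusted p = 0.215 over 20 relations) and Spearman's rho 0.31 (permutation p = 0.329, adjusted p = 0.790). Without Treatment replicates 1 and 3, the farthest from the median, r was -0.07, so the relation over all libraries rests on those 2, and within groups r was 0.87. For 3 other genes of the 10 the permutation p of r was under 0.05 before adjustment, and no relation passed after it. With the length difference r was 0.61 for Mki67 (permutation p = 0.0330, rho = 0.48 with permutation p = 0.119, r = 0.45 without those 2 libraries, 0.76 within groups). For Top2a it was 0.60 (permutation p = 0.0410, rho = 0.59 with permutation p = 0.0457, r = 0.50 without them, 0.58 within groups). For Sox2, r with the difference between transcripts rich and poor in G and C was 0.64 (permutation p = 0.0252, rho = 0.53 with permutation p = 0.0778). Without Treatment replicates 3 and 4 its r was 0.40, and within groups it was 0.49. For all 3 genes the adjusted p of r was 0.215 over the 20 relations, and that of rho was 0.519 for Sox2 and Top2a and 0.594 for Mki67. Sox2 itself was near the middle in GC content (55.5% of genes were lower). Sox11, longer than 95.4% of genes, had r = 0.23 with the length difference (permutation p = 0.482). With the GC difference its r was -0.57 (permutation p = 0.0532, adjusted p = 0.215) and its rho -0.57 (permutation p = 0.0571, adjusted p = 0.519). With GC and length trends removed, an alternative chosen after seeing the data, the fold change of Dcx in Model against Control was -0.26 with adjusted p = 0.0668. In the same fit Neurod2 passed in both comparisons, at 0.39 in Model against Control (adjusted p = 0.0159) and -0.42 in Treatment against Model (adjusted p = 0.0167), and Neurod1 in Model against Control, at 0.35 (adjusted p = 0.0357).

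**Figure D4:**
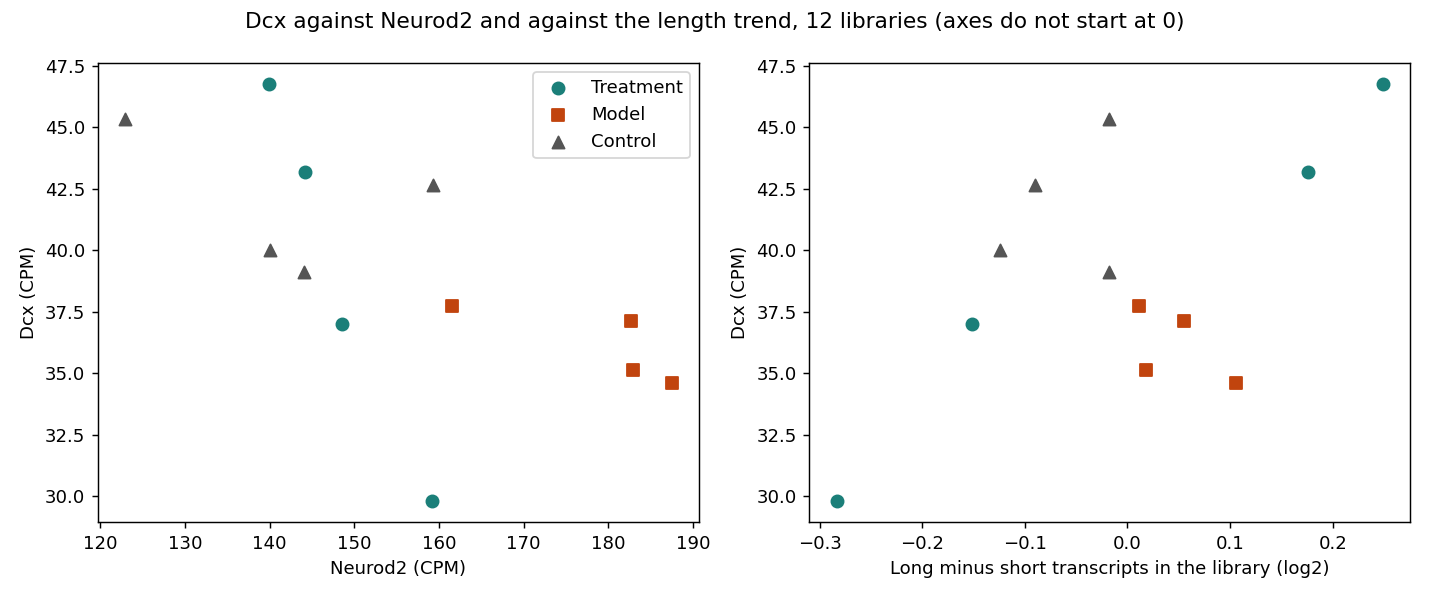
Dcx (CPM) against Neurod2 (CPM, left) and against the log2 difference between long and short transcripts of the library (right), 1 point per library. The 4 Treatment libraries run from 29.8 to 46.8 CPM along the length difference, and the 4 Model libraries sit at high Neurod2 and low Dcx. The axes do not start at 0.

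Dcx and Neurod2 ran against each other over the libraries, with Pearson's r = -0.64 (permutation p = 0.0229, adjusted p = 0.283 over the 45 pairs) and Spearman's rho = -0.74 (permutation p = 0.00780, adjusted p = 0.150). Without the 2 libraries farthest from the median of Neurod2, r was -0.51, and within groups it was -0.56. Neither correlation passed after adjustment.

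Igfbpl1, whose product resembles IGF binding proteins (chromosome 4, 45809468 to 45826923), had 3.64, 6.54, 8.74 and 5.26 CPM in Treatment, 6.45, 5.73, 7.55 and 8.28 CPM in Model, and 7.14, 6.59, 7.98 and 6.05 CPM in Control. Treatment replicate 1 was the lowest and Treatment replicate 3 the highest of the 12, the reverse of Dcx, the other neuroblast gene. Its differences were -0.22 ± 0.20 in Treatment against Model (adjusted p = 0.631, edgeR) and 0.02 ± 0.20 in Model against Control (adjusted p = 0.976), and the first was -0.04 without Treatment replicate 1, -0.45 without Treatment replicate 3 and -0.65 without Treatment replicates 2 and 3 together, none of which passed. Within groups Igfbpl1 varied more than 91.8% of the 500 genes nearest in level, and Dcx more than 90.0%.

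Other genes of the stages gave few calls. Of 19 further genes of radial glia-like stem cells, 0 passed in Treatment against Model or in Model against Control (0 and 3 at an unadjusted p under 0.05), with medians of 0.00 and 0.01. Of 27 further genes of dividing cells 0 passed in either comparison (2 and 2 at an unadjusted p under 0.05), with medians of 0.09 and -0.01. Among 29 genes of intermediate progenitors and neuroblasts 2 fell and 0 rose in Treatment against Model, and 0 passed in Model against Control (5 at an unadjusted p under 0.05), with medians of -0.04 and 0.07. The 2 that fell were Prox1 and Ccnd2, of which Prox1 is also on the list of mature granule cells. Prox1, the homeobox factor that gives granule cells their identity, had 125, 118, 98.2 and 112 CPM in Treatment against 136, 156, 175 and 146 CPM in Model (-0.43 ± 0.10, adjusted p = 0.0331, edgeR). Ccnd2, a cyclin that progenitor division depends on, had 85.0, 88.2, 79.3 and 87.2 CPM in Treatment against 98.6, 97.2, 102 and 102 CPM in Model (-0.23 ± 0.05, adjusted p = 0.0393). Neither gene overlapped between the groups.

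Signals of the niche were tested as 29 ligands, receptors and inhibitors. Vegfa, a growth factor for vessels that also acts on stem cells, rose in Treatment against Model (0.35 ± 0.06, adjusted p = 0.0179, edgeR), with 67.2, 64.5, 62.9 and 58.1 CPM in Treatment and 47.9, 51.5, 46.3 and 52.3 CPM in Model. The other 28 did not pass, and the median of the list was 0.01. Endothelial markers moved with it: 12 of 12 had positive fold changes (median 0.26), Slco1a4 and Pecam1 rose, and their summed level was 316 to 379 CPM in Treatment, 271 to 295 CPM in Model and 277 to 307 CPM in Control. Their part in the level of Vegfa was not tested. In Model against Control 0 of the 29 passed (6 at an unadjusted p under 0.05). In Treatment against Control 0 genes of the 4 lists passed (3, 3, 4 and 7 at an unadjusted p under 0.05, in the order above).

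Markers of other cells moved beside the NeuroD genes. Of 20 markers of mature granule cells 6 fell in Treatment against Model and 0 rose, with a median of -0.30 and 18 negative signs. Their summed level was 1345 to 1508 CPM in Treatment, 1600 to 1881 CPM in Model and 1514 to 1713 CPM in Control, all 20 passing the count filter. The 4 of smallest p were Trpc6, a cation channel (-0.58 ± 0.10), Il16 (-0.52 ± 0.10), Sema5a, a guidance protein (-0.49 ± 0.10), and C1ql3, a synaptic organiser (-0.30 ± 0.06), with adjusted p between 0.0174 and 0.0305 in edgeR. In Model against Control Trpc6 alone rose (0.50 ± 0.10, adjusted p = 0.0295), beside a median of 0.10 for the list.

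The 20 pyramidal cell markers, a second source of Neurod2, summed to 2324 to 2586 CPM in Treatment, 2510 to 2877 CPM in Model and 2258 to 2639 CPM in Control. Cpne4 fell in Treatment against Model (-0.33 ± 0.07, adjusted p = 0.0363), and the medians were -0.17 there and 0.10 in Model against Control. Neocortical layer markers, 19 genes, had medians of 0.14 and 0.11 and summed to 1065 to 1213 CPM in Treatment, 1082 to 1121 CPM in Model and 939 to 1016 CPM in Control. Of them Cux2 and Lamp5 rose and Calb1, which is on the granule cell list too, fell in Treatment against Model. Astrocyte markers, the main other source of Sox2, had medians of 0.00 (7 positive, 7 negative) and -0.06 (4 positive, 10 negative). Of these 14 genes Aldh1l1 alone passed, and it rose in Treatment against Model (0.32 ± 0.07, adjusted p = 0.0398). The 12 oligodendrocyte precursor markers had medians of 0.12 (9 positive, 3 negative) and -0.03 (5 positive, 7 negative). Olig1 alone passed among them, as higher in Treatment against Model. Microglia markers were positive for 12 of 12 in Treatment against Model (median 0.17, 0 passed, 5 at an unadjusted p under 0.05) and summed to 451 to 499 CPM in Treatment, 393 to 459 CPM in Model and 447 to 476 CPM in Control. Ependymal markers were negative for 11 of 11 there (median -0.25, 0 passed, 0 at an unadjusted p under 0.05) and also for 11 of 11 in Model against Control (median -0.33, 0 passed, 1 at an unadjusted p under 0.05). Their sums were 23.7 to 48.0 CPM in Treatment, 38.2 to 59.3 CPM in Model and 43.9 to 60.4 CPM in Control. The part of these cells in the values of Neurod1, Neurod2, Prox1 and Sox2 was not tested. In Treatment against Model 0 genes of any list passed without Model replicate 2 or without Model replicate 3, since 0 of all genes did.

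**Figure D5:**
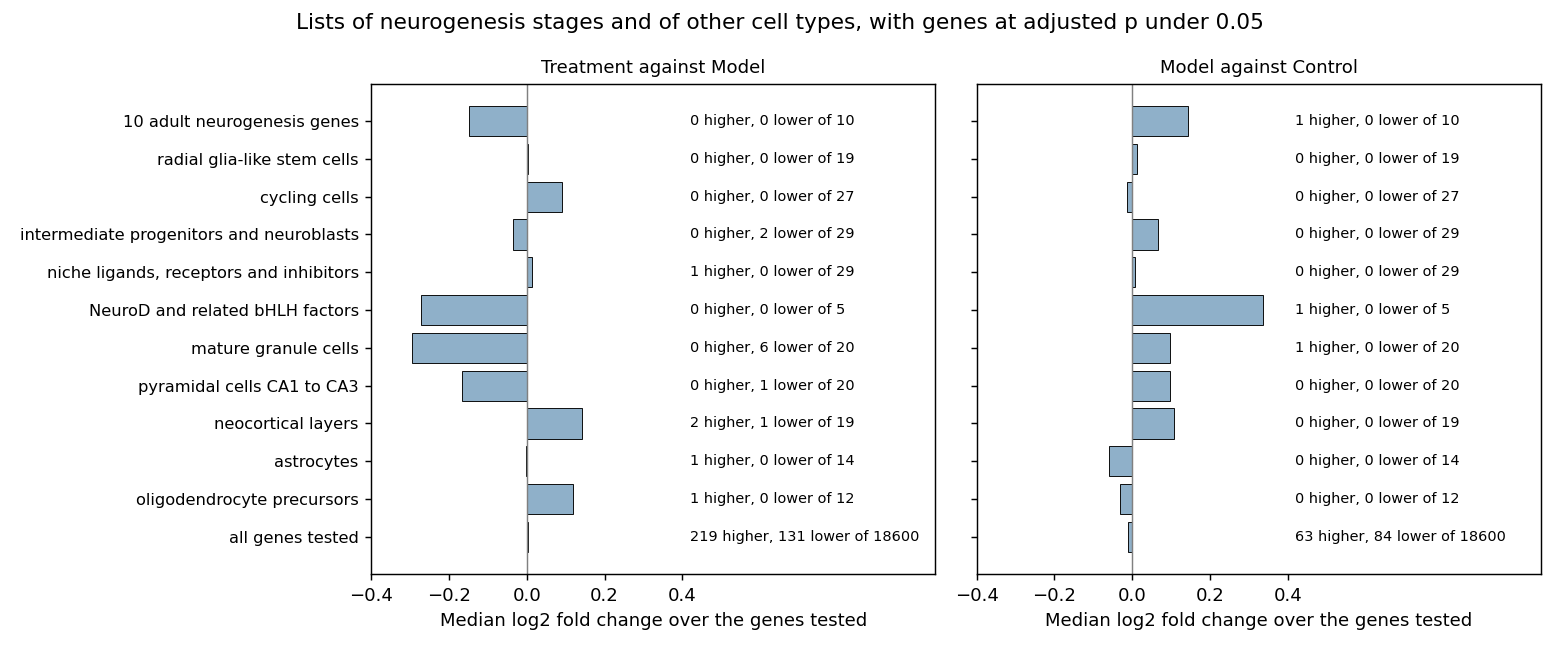
Median log2 fold change over the tested genes of each list in Treatment against Model (left) and Model against Control (right), with the number of genes at adjusted p under 0.05 in edgeR. The stage lists lie within 0.10 of 0, and mature granule cell markers have the lowest median in Treatment against Model (-0.30, 6 lower of 20).

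The genes most like Dcx, Neurod2, Sox11 and Mki67 over the 12 libraries were sought among 13715 named genes with a mean of at least 1 CPM, by Pearson's r of log2 CPM, as a description with no test. Next to Dcx stood Bmp2k (r = 0.95), Csmd1 (0.95) and Setd5 (0.93), none of them a neuroblast marker, with r of 0.87 to 0.89 when the 2 farthest Treatment libraries were left out. Slc35f3 (0.94), Lrp11 (0.93) and Cstf2t (0.93) were the nearest to Neurod2. For Sox11 they were Zfp52 (0.88), Pwwp3b (0.88) and Eif4e3 (0.85), and for Mki67 Ralgps1 (0.88), Usp40 (0.88) and Gna13 (0.85). No gene of the cycling list was among the 3 nearest to Mki67, whose r with Top2a was 0.35 (permutation p = 0.256, adjusted p = 0.640; Spearman's rho = 0.43, permutation p = 0.167, adjusted p = 0.538; r without the 2 farthest libraries 0.42). These genes share libraries, depth and any trend of the library.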

How the data were processed

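Hippocampal poly(A) RNA was sequenced in 12 libraries, and groups were taken from the labels. The submitters' processing notes name Salmon 1.10.1, STAR 2.7.10a, cutadapt 3.4, Trim Galore 0.6.7 and FastQC 0.12.1 with the build GRCm39. The annotation release is not given in the sources used here. The authors deposited an unscaled estimated count per gene and library (28.8% of nonzero values were not whole within 1e-06) and FPKM values, scaled by the authors for length and library total. Gene coordinates are those of the deposited table (GRCm39).

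Estimated counts were rounded and fitted in R 4.3.3 with edgeR 4.0.16 (filterByExpr, TMM, quasi-likelihood, a mean per group, all 12 libraries). The SE is the fold change over the square root of its F statistic. CPM use TMM-scaled library sizes, and correlations log2 CPM with a prior count of 2. Values within groups are taken after subtracting group means.

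The 10 genes and all lists were chosen with earlier results of these data known. All 10 are named, as are up to 4 genes that passed in a list, or the gene of smallest p where none did. Alternatives were RLE scaling, DESeq2 1.42.0, limma-voom (limma 3.58.1), other filters, fewer libraries, a replicate block and FPKM in limma (pseudocounts 0.1 and 1, at least 0.5 FPKM in 4 libraries). Loess offsets on GC content and length were chosen after seeing the data. They use the longest transcript per gene in GENCODE vM21 of the earlier build GRCm38, matched by identifier for 17359 of 18600 genes and for all 10. Python 3.11.15, matplotlib 3.10.9 and data.table (version 1.17.8) were also used. Counts were also simulated for all 12 libraries, with changes put into Treatment. In Treatment against Model 37.8% of genes changed by 0.4 log2 units and 71.4% of those changed by 0.8 were called. The simulation drew 18340 genes and gave 3 false calls.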

Additional observations from a re-analysis of the deposited data

Results flagged for a closer look

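Of 30 sets of 4 libraries (10 genes in 3 groups), 1 held a library that stood apart. Mki67 in Model replicate 2 was at 3.36 CPM, whereas the other 3 Model libraries were at 4.25 to 4.31 CPM. The gap to the nearest of them was 0.93 of the whole range in Model, above the limit of Dixon's outlier test at 95%. Chance alone marks about 1 in 20 such sets.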

How the results depend on the processing

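Genes passing over the whole table numbered 350 in Treatment against Model, 147 in Model against Control and 19 in Treatment against Control. In the same order they were 1088, 658 and 430 in DESeq2, 318, 88 and 9 in limma-voom, 1090, 783 and 748 without a filter, and 137, 452 and 2 with only the 8 libraries compared. Without Treatment replicates 2 and 3 together they were 132, 284 and 130, with FPKM and a pseudocount of 0.1 they were 114, 5 and 14, with a pseudocount of 1 they were 111, 5 and 9, and with GC and length trends removed 324, 540 and 20. RLE scaling gave 12 in Treatment against Control. Leaving out 1 library at a time gave 0 to 459, 8 to 273 and 0 to 73. In Treatment against Model the count was 0 without Model replicate 2 or 3, 52 without Treatment replicate 2, 116 without Treatment replicate 4, 205 without Control replicate 4 and 216 without Model replicate 4. In Model against Control it was 8 without Control replicate 1 or 2, 91 without Control replicate 3, 21, 13 and 11 without Model replicates 2, 3 and 4, and 273 without Treatment replicate 3. The causes were not tested.

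Of the 10 genes, 0 in Treatment against Model and 1 in Model against Control passed. These counts were 2 and 2 in DESeq2, 3 and 2 without a filter (Eomes, adjusted p = 0.0235, was the third), 1 and 2 with GC and length trends removed, and 0 and 0 in limma-voom and with FPKM. They were 0 to 1 and 0 to 1 with 1 library left out. The share of all genes that passed also changed between these settings, as the whole-table counts above show. In Treatment against Control no setting called any of the 10. Mki67 was below the filter of the FPKM settings.

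Same-numbered libraries had correlations of deviations between -0.04 and 0.11, beside means of -0.03 to 0.01 for libraries of different number. Values this small cannot settle whether the numbers pair the samples, and the labels name no pairs. With a replicate block 431, 228 and 118 genes passed, and 0, 1 and 0 of the 10.

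Signs turned only for differences that had not passed. Sox2 in Model against Control was 0.0053 with RLE scaling and in DESeq2, 0.011 without a filter and 0.043 with trends removed, and -0.068 to 0.070 with 1 library left out. Igfbpl1 there was -0.097 and -0.079 with FPKM (pseudocounts 0.1 and 1) and -0.068 to 0.12 with 1 left out. Top2a in Treatment against Model was -0.23 and -0.13 with FPKM and -0.047 to 0.20 with 1 left out, and Mki67 -0.27 to 0.097. In Treatment against Control and with 1 library left out, Neurod1 ran from -0.066 to 0.048, Neurod2 from -0.00081 to 0.12 (-0.035 with trends removed) and Dcx from -0.19 to 0.013 (0.00022 without Treatment replicates 2 and 3 together). Of 684 fold changes under alternatives, 633 kept their sign and side of the threshold.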
